A study of Homo sapiens with 6 samples.

Results

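The SOX genes described here are SOX2, SOX4, SOX5, SOX6, SOX9, SOX10, SOX11 and SOX17, 8 of the 19 SOX genes that lie on the autosomes or chromosome X. They were chosen by family with earlier results in view, and SOX4 was selected on its compartment scores, which were known to be negative in the 5 parental libraries and positive in the resistant cells, so its pattern is a description without a test. The cells are T47D, a widely used human breast cancer line with estrogen receptor. The parental line was kept without hormone for 72 h (T0) and then given 100 nM β-estradiol (E2) for 1, 4, 16 or 24 h (T1, T4, T16 and T24). Tamoxifen-resistant T47D cells (TamR) carry no E2 treatment in the labels, and the methods of the study state that TamR cells were kept in charcoal-stripped serum with 100 nM tamoxifen. TamR and T0 thus differ in the presence of tamoxifen and in the selection for resistance. By the stated methods they also differ in the level of charcoal-stripped serum and the time spent in it. These differences cannot be told apart. Each condition has 1 library, so no difference has a replicate check and no test between conditions was made.

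In the cell nucleus, active and gene-rich chromatin tends to contact other active chromatin (compartment A), and inactive chromatin contacts inactive chromatin (compartment B). SOX proteins are transcription factors that bend DNA through a shared HMG box and set cell identity in development. Several are known from epithelial tumours: SOX2 from stem cell programmes, SOX4 from epithelial-mesenchymal transition and SOX9 from progenitor cells of the mammary gland. The paired relatives are SOX4 and SOX11 (SoxC), SOX5 and SOX6 (SoxD), and SOX9 and SOX10 (SoxE).

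Tethered chromatin conformation capture (TCC) measured contacts between genomic regions, and the deposited value is the first eigenvector of the interchromosomal contact matrix in 100 Kb bins of hg19, here multiplied by 1000. A positive score is compartment A and a negative score compartment B. The squared scores sum to between 0.998 and 0.999 in each library before this multiplication, so sizes are comparable between libraries only relative to the rest of each library. A percentile of a score is its rank among the scored bins of its own library. Of 30376 bins, 27898 had a score in all 6 libraries, and B held between 52.4% (TamR) and 56.0% (T24) of the bins scored in a library. No contact counts are given, and the sequencing depth behind the scores is therefore unknown. Transcripts were not measured. The gene bodies and 10 bins on either side cover 187 bins, of which 186 had a score in all 6 libraries.

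The starts of 7 of the 8 genes lay in B in all 5 parental libraries, and SOX10 alone lay in A. In TamR, SOX4 and SOX6 lay in A, while SOX2, SOX5, SOX9, SOX11 and SOX17 remained in B and SOX10 in A. No start of the 8 went from A to B, which SOX10 alone could have done, against 2.7% of protein-coding gene starts. The stable compartments are common: 38.2% of all bins were in A and 44.6% in B in all 6 libraries. Of protein-coding gene starts 71.6% were in A and 16.2% in B in all 6 libraries, so B was the less usual place for a start. Of the bins in A in all 5 parental libraries 9.34% were in B in TamR, and of such gene starts 3.63%. Over all bins, 6.13% were in B in the 5 parental libraries and in A in TamR, and over the bins of 19670 protein-coding gene starts 3.79% were. Among gene starts in B in all 5 parental libraries the share was 19%. Nothing is read from the count of 2 of 8, since SOX4 was chosen for this change. Over the scored bins of the 8 windows 37 of 186 went from B to A (19.9%), a share that the choice of SOX4 in part fixed. Of the 137 bins in B in all 5 parental libraries these were 27.0%, against 12.1% of all such bins of the genome. The 37 bins came from SOX6 (19), SOX4 (15) and SOX17 (3). Without the SOX4 window 22 of 122 parental B bins were in A in TamR (18.0%, or 13.3% of all 165 scored bins), and without the SOX6 window 18 of 118 (15.3%, or 11.5% of 157). In the other 6 windows together it was 3 of 103 (2.91%). From A to B went 0 of 186 bins, against 3.94% of all bins, but only 36 of the 186 were in A in all 5 parental libraries and could have done so.

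**Figure D1:**
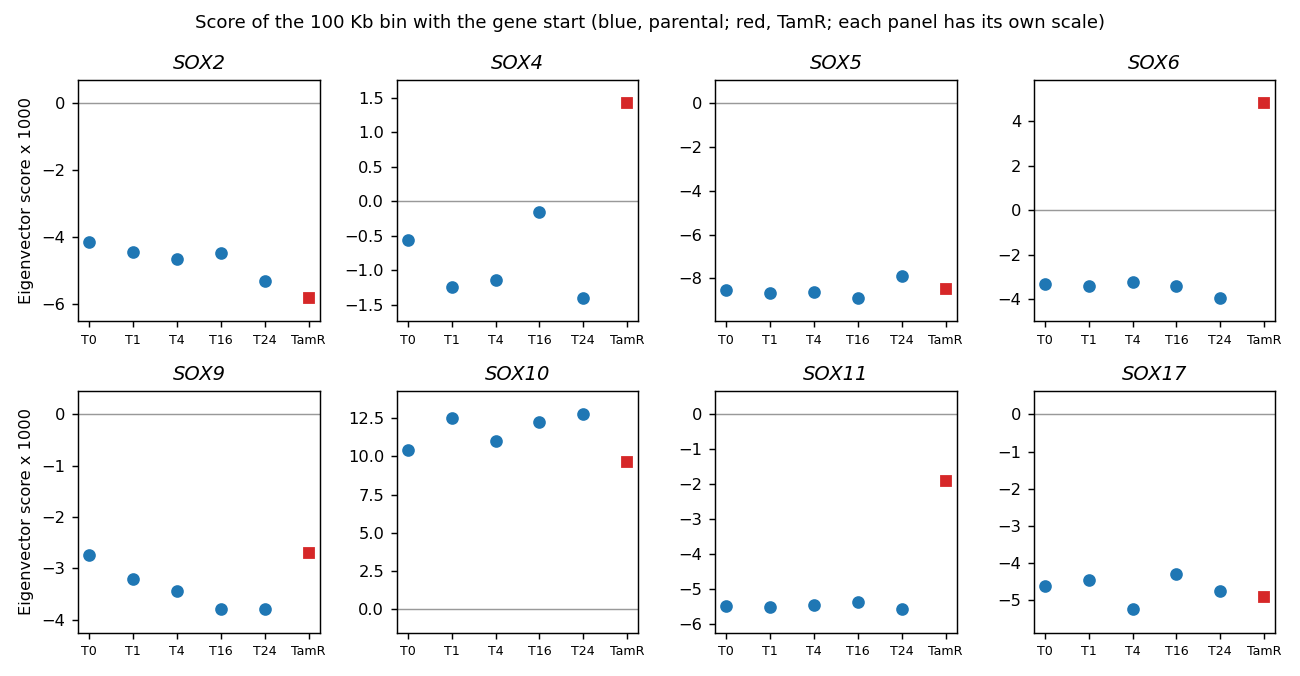
Eigenvector score multiplied by 1000 (vertical axis, own scale in each panel) of the 100 Kb bin with each gene start in the 6 libraries, with 1 point per library. TamR is above the border of 0 for SOX4 (1.42) and SOX6 (4.81), whose 5 parental points are below it, and at SOX11 TamR (-1.91) stands above a tight parental group without crossing 0.

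SOX6 showed the greatest change of the 8. It encodes a SoxD protein without an activation domain of its own that acts with SOX9 in cartilage and is also known from muscle and red blood cells. The gene (ENSG00000110693.19_16, minus strand) spans chr11:15987995-16761138 and 9 bins. The score of its start bin was -3.31 in T0, -3.40 in T1, -3.21 in T4, -3.39 in T16, -3.94 in T24 and 4.81 in TamR. The 5 parental values lay within 0.73 of each other and TamR was 8.26 above their mean. On the percentile scale the start went from 32.8 to 36.1 in the parental libraries to 76.9 in TamR. Of 19670 protein-coding gene starts, 152 had a greater TamR minus parental difference.

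The change covered the whole SOX6 gene. Over the 9 body bins the parental scores lay between -7.87 and -3.21, and the TamR scores between 1.51 and 4.81, so that the groups did not overlap in any bin. Lack of overlap alone is common: over all bins, TamR was above all 5 parental scores in 35% and below them in 43.6%. The mean over the body was -6.32 in T0, -6.06 in T1, -6.25 in T4, -6.47 in T16, -6.73 in T24 and 3.72 in TamR. The deep interior of the gene was thus further in B than its start in the parental cells, and the difference per bin ranged from 8.1 to 11.58. The start of the canonical transcript, 383 Kb inside the gene, had scores of -7.19 in T0 and 1.51 in TamR.

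The SOX6 body ended a B domain in the parental cells. In T0, T1, T4 and T16 this domain ran over 23 bins, from chr11:14500001-16800000, and in T24 it reached 16900000. All 23 bins were in A in TamR, with a mean of -4.96 over the parental libraries and 3.28 in TamR. In TamR they were part of an unbroken A domain of 103 bins, chr11:8600001-18900000. Of 427 runs of adjacent bins that went from B to A in the genome, with bins without a score ending a run, 7 were at least this long, and the median run had 2 bins. The border to A lay directly beyond the SOX6 start in T0, and the flank on that side, with PLEKHA7, a component of adherens junctions, as its nearest gene, was in A.

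The neighbours of SOX6 inside the switched run had the same change, which the definition of the run fixed, so their values are a description. C11orf58, which starts inside the SOX6 body, had a parental mean of -6.41 and a TamR score of 4.40. INSC, which orients the mitotic spindle, went from a mean of -4.55 to 3.56. CALCA and CALCB, which encode calcitonin gene-related peptides, and CYP2R1, a vitamin D hydroxylase, share a bin with a mean of -4.28 and a TamR score of 2.60. At PLEKHA7, already in A, TamR was higher as well (6.89 against a parental mean of 3.17). TamR exceeded all 5 parental scores in 29 of 29 bins of the SOX6 window, against 35% of all bins.

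SOX4 (ENSG00000124766.7_7, plus strand) is a gene of 1 exon at chr6:21593982-21598850 that encodes a SoxC activator. Its bin had scores of -0.56 in T0, -1.24 in T1, -1.14 in T4, -0.15 in T16, -1.40 in T24 and 1.42 in TamR. All 6 values lie close to the border, and T16 was the nearest to it. TamR was 2.32 above the parental mean, and 2409 of the 19670 gene starts had a greater difference. As percentiles the start went from 46.8 to 53.0 in the parental libraries to 60.2 in TamR. With the border at each library's median in place of 0, T0 (51.0) and T16 (53.0) were already in A, and SOX6 was then the only gene of the 8 that switched.

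The surroundings of SOX4 showed more than the gene itself. In TamR 21 of 21 bins of the window were in A, against 6 in T0, 1 in T1, 2 in T4, 1 in T16 and 0 in T24. TamR exceeded every parental score in all 21 bins, against 35% of all bins, a count that the choice of SOX4 in part fixed. In T0 the gene lay in a B segment of 3 bins, chr6:21500001-21800000, bordered by weak A bins, and in the E2 libraries it lay in a B domain of 35 to 41 bins. In TamR it lay in an A domain of 133 bins, chr6:9400001-22700000. The change was greater downstream than at the gene: over the 10 bins to the right the parental mean was -2.80 and the TamR mean 1.14. PRL, which encodes prolactin, went from a parental mean of -3.97 to 1.23, and HDGFL1 from -5.11 to 0.70. At the start of CDKAL1, which encodes a tRNA-modifying enzyme and lies upstream, T0 was 0.29, the E2 libraries were -1.05 to -0.61 and TamR was 1.55.

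**Figure D2:**
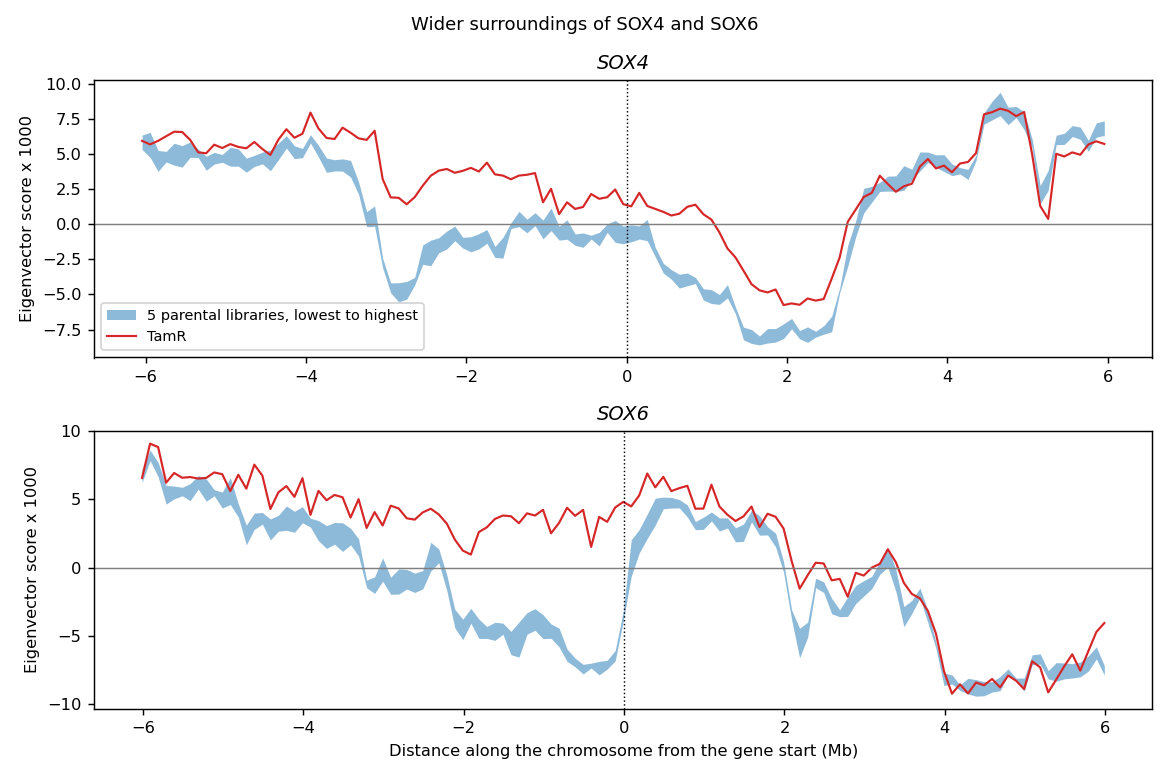
Eigenvector score multiplied by 1000 (vertical axis) against distance along the chromosome from the start of SOX4 and SOX6 in Mb, with the lowest to highest parental score as a band and TamR as a line. Around SOX6 the parental band lies wholly below 0 for 23 bins where TamR stays above 0. Around SOX4 the band lies near 0 at the gene and falls away to its right before TamR does. To the left of SOX4, from -3.044 to -1.544 Mb, the band also lies below 0 where TamR is above 0.

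The bases before both switched starts, and before SOX5 for contrast with its nearest relative SOX6, are shown because the promoter's base composition is a feature that the choice of genes did not use. They are the 250 bases upstream of each GENCODE gene start, 5′ to 3′ on the gene's strand, read from GRCh37. The canonical transcripts of SOX6, SOX5 and SOX10 start 383, 613 and 2.87 Kb inside the gene. For these 3 genes the bases are therefore not those before the canonical start, and the canonical promoters were not compared. CpG dinucleotides are in capitals.
SOX4, chr6:21593732-21593981, plus strand: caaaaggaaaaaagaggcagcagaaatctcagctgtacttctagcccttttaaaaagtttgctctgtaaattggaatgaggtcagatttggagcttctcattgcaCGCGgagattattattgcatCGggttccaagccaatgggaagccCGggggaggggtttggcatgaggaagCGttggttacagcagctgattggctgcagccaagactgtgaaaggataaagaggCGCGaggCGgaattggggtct
SOX6, chr11:16761139-16761388, minus strand: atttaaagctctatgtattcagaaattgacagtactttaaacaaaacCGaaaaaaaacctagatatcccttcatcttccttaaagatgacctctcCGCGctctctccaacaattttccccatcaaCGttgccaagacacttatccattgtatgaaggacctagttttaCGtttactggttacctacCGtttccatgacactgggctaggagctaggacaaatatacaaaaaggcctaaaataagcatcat
SOX5, chr12:24715479-24715728, minus strand: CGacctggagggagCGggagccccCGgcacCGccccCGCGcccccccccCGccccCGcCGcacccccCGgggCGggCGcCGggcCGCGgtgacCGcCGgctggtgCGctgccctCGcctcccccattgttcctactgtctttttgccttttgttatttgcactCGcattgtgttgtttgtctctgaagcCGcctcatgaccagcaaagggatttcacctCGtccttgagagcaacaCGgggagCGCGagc
SOX4 holds 8 CpGs, SOX6 holds 6 and SOX5 holds 25, against a median of 14 over 20094 promoters of the same length. The other genes held 4 (SOX10), 10 (SOX11), 12 (SOX9), 20 (SOX2) and 26 (SOX17). The SOX-binding core ACAAT, searched on both strands, occurred in SOX6 and SOX5 with 2 matches each and in SOX9 with 1, and 21.3% of all promoters held it. The estrogen response element arm GGTCA, also searched on both strands, occurred in SOX4 and SOX6 with 1 match each, in SOX5 with 2, in SOX2 with 1 and in SOX10 with 3, and 32.6% of all promoters held it. A match is a description and not a binding site, and the 100 Kb scores do not resolve a promoter.

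SOX5, the nearest relative of SOX6 and its partner in cartilage, showed no such change. The gene (ENSG00000134532.20_17, chr12:23682438-24715478, minus strand) spans 12 bins deep inside a B domain of 95 to 99 bins in every library. Its start bin scored -8.51 in T0, -8.69 in T1, -8.63 in T4, -8.90 in T16, -7.88 in T24 and -8.48 in TamR. TamR lay within the parental range on this scale, 0.05 above the mean, and as a percentile it was slightly above it (4.00 against 0.514 to 1.53). Over the 12 body bins the TamR mean was -8.76 and the parental mean -8.47, with 12 of 12 bins in B in all 6 libraries. TamR was below all parental scores in 6 of the 12, against 43.6% of all bins. The nearest genes, ETNK1 on the left and BCAT1, which breaks down branched-chain amino acids, on the right, were in B in all 6 libraries (parental means -2.43 and -6.54, TamR -2.63 and -5.07). SOX5 and SOX6 were both in B in the parental cells, and with TamR minus parental body means of -0.29 and 10.08 they were far apart in TamR.

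SOX11, the relative of SOX4, moved towards the border and did not cross it. SOX11 (ENSG00000176887.7_11, chr2:5832516-5841517, plus strand) is known from the developing nervous system. Its scores were -5.48 in T0, -5.52 in T1, -5.47 in T4, -5.37 in T16, -5.59 in T24 and -1.91 in TamR. The parental range of 0.22 was among the smallest in the genome (percentile 0.346 of all bins), and the TamR value was 3.57 above the parental mean. As percentiles these are 21.4 to 23.9 and 42.1. In the 10 bins to the right TamR was above all parental scores in 10 of 10, with a mean of -3.24 against -6.03. In the 9 scored bins to the left it was above them in 4, and over all bins in 35%. All 20 scored bins of the window were in B in all 6 libraries. No other protein-coding gene starts in this window.

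SOX2 went the other way, by an amount common among gene starts: 6220 of 19670 had a lower TamR minus parental difference. It maintains stem cells and lies inside the long non-coding gene SOX2-OT (SOX2 is ENSG00000181449.4_10, chr3:181429713-181432224, plus strand). Its scores were -4.14 in T0, -4.46 in T1, -4.67 in T4, -4.49 in T16, -5.31 in T24 and -5.83 in TamR, the lowest of the 6. TamR was below all 5 parental scores in 20 of 21 bins of the window, against 43.6% of all bins, and the window mean was -4.64 over the parental libraries and -6.35 in TamR. The nearest genes, DNAJC19, which encodes a mitochondrial protein, and FXR1, an RNA-binding protein, were in B in all 6 libraries. At DNAJC19 TamR (-8.45) was below all parental scores (mean -6.41). At FXR1, the bin that made the exception, TamR (-6.42) was below the parental mean of -5.83 but above T0 (-6.66).

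SOX9 and SOX10, the SoxE pair, lay in opposite compartments in all 6 libraries. SOX9 (ENSG00000125398.8_8, chr17:70117161-70122557, plus strand), a regulator of cartilage and of epithelial progenitors, scored -2.74 in T0, -3.20 in T1, -3.45 in T4, -3.80 in T16, -3.79 in T24 and -2.70 in TamR. Its TamR value was equal to T0 within 0.04 and above the E2 values. The gene lies on a slope between B on the left and A on the right, with the border 5 or 6 bins to the right in every library. TamR was above all parental scores in 19 of 21 bins of this slope, against 35% of all bins. SLC39A11, a zinc transporter gene 972 Kb to the right, was in A in all 6 libraries.

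SOX10 (ENSG00000100146.20_11, chr22:38366693-38383429, minus strand), a regulator of neural crest, lay in an A domain of 156 bins in every library, chr22:35600001-51200000, whose right end is an unscored bin near the end of the chromosome. It scored 10.38 in T0, 12.47 in T1, 11.01 in T4, 12.25 in T16, 12.73 in T24 and 9.61 in TamR. Its window held 55 other protein-coding gene starts, all in A in all 6 libraries. It shares its bin with the starts of POLR2F, a subunit of RNA polymerases, MICALL1 and C22orf23. The nearest start in another bin was that of PICK1, which encodes a protein kinase C-binding protein (parental mean 15.07, TamR 14.33). TamR was lowest at the start, but within the parental range in 11 of the 21 bins of the window, below it in 10 and above it in 0. Over all bins TamR was below the parental range in 43.6% and above it in 35%.

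SOX17 (ENSG00000164736.6_6, plus strand), a regulator of endoderm and blood vessels, scored -4.60 in T0, -4.45 in T1, -5.24 in T4, -4.30 in T16, -4.74 in T24 and -4.91 in TamR. TamR thus lay within the parental range. To its left, 3 bins far from the gene went from B (parental mean -2.77) to A (TamR mean 0.55), and hold no protein-coding gene start. The nearest genes, MRPL15 on the left and RP1, a gene of the photoreceptor, on the right, were in B in all 6 libraries.

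**Figure D3:**
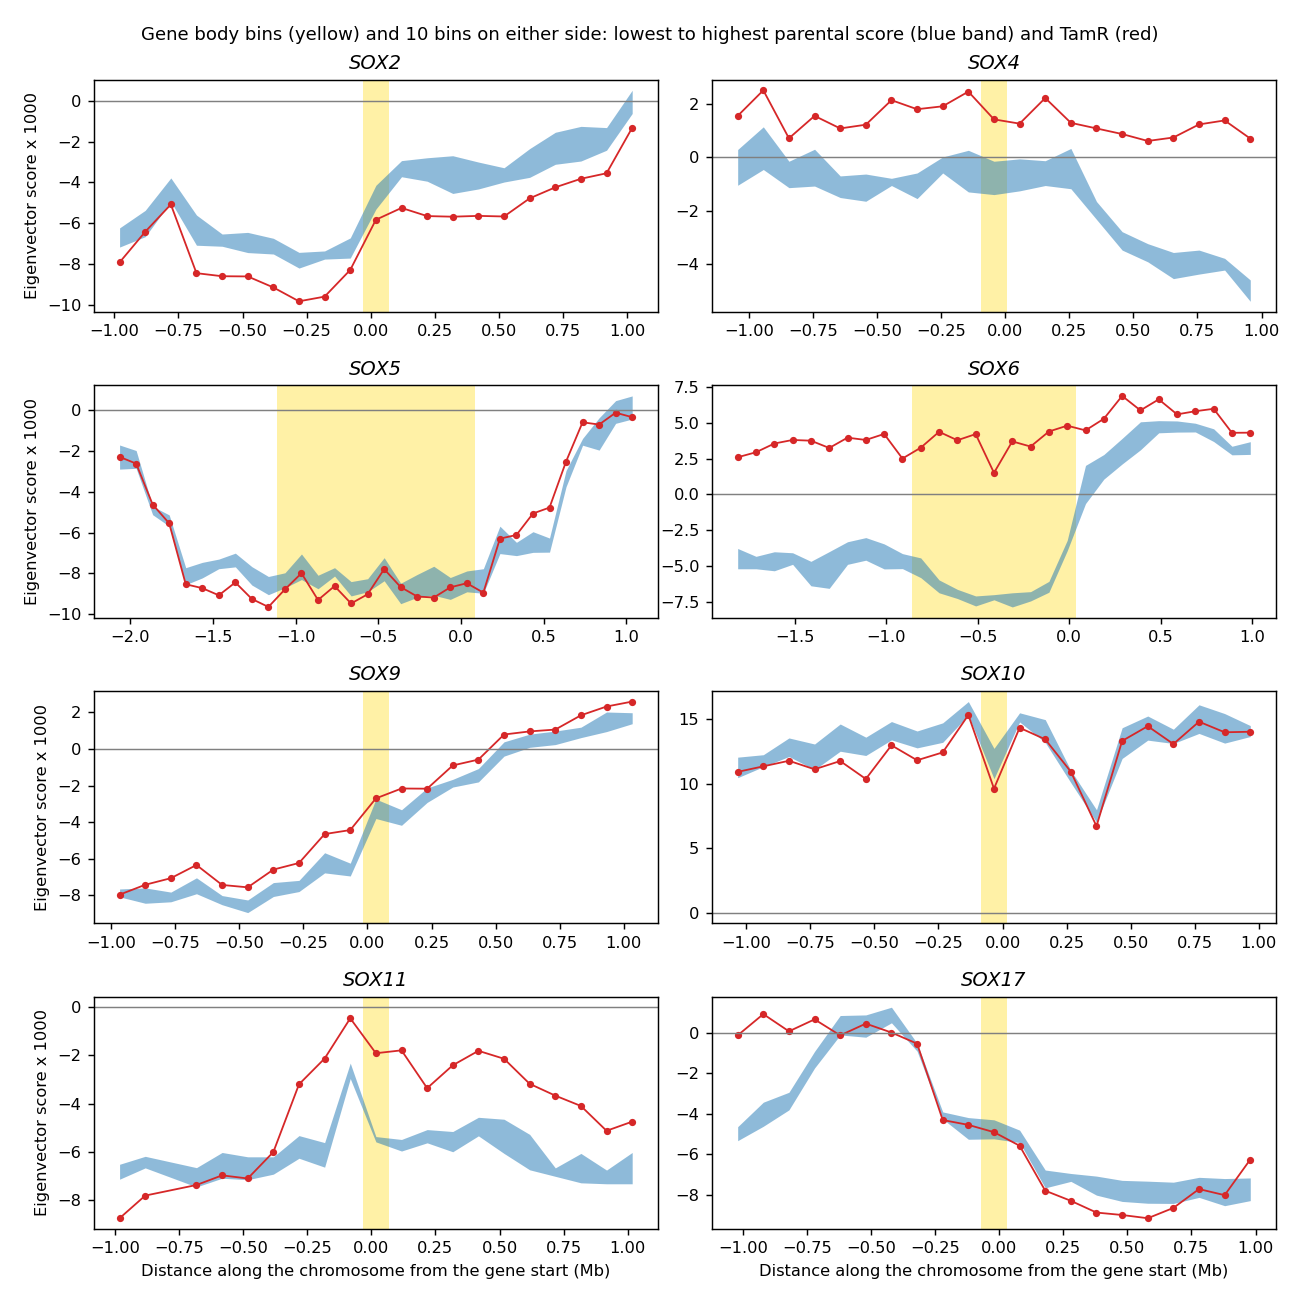
Eigenvector score multiplied by 1000 (vertical axes, own scale in each panel) along the gene body bins (yellow) and 10 bins on either side, against distance along the chromosome from the gene start in Mb. The band runs from the lowest to the highest parental score and the line is TamR, which is apart from the band throughout the SOX4 and SOX6 windows, close to it or within it across the SOX5 and SOX10 bodies, and below it in 20 of 21 bins around SOX2.

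During E2 treatment none of the 8 starts changed compartment. Of all gene starts 5.7%, and of all bins 7.11%, had more than 1 compartment over the 5 parental libraries. SOX4 was chosen as in B in all 5, so its lack of change was fixed by the choice. A set of 8 starts is also too small to tell its share from 5.7%, so no difference is read from it. In the 186 bins of the windows the share was 6.99% (13 bins, Wilson interval 4.13 to 11.6%), with 6 of these bins around SOX4. The interval counts adjacent bins as independent, which they are not, so it is too narrow. All 4 E2 scores were below T0 at SOX2 and SOX9 and above T0 at SOX10. Over all bins 26.7% had all E2 scores below and 23.1% above T0, and over gene starts 24.5% and 27.7%. At the other 5 starts the E2 values lay on both sides of T0. In the SOX4 window 16 of 21 bins had all E2 scores below T0, so that E2 libraries lay further from TamR there than T0 did. The mean of this window was -1.20 in T0, between -1.93 and -1.68 in the E2 libraries and 1.42 in TamR.

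Next to the SOX6 start, the first bin of the A flank scored 2.03 in T0, 1.01 in T1, 0.69 in T4, 0.66 in T16, -0.64 in T24 and 4.48 in TamR. The mean of this flank of 10 bins was 3.96 in T0, 2.80 in T24 and 5.52 in TamR. T24 also had the greatest share of B bins of the 6 libraries, 56.0% against 53.1 to 54.0% in the other parental libraries, and its part in these values was not tested.

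The remaining 11 SOX genes give the family's background. In the parental libraries and TamR 6 were in A (SOX1, SOX8, SOX12, SOX13, SOX15 and SOX18), 3 were in B (SOX14, SOX21 and SOX30), and SOX3 and SOX7 had both compartments in the parental course. Of these 11, 0 went from B to A and 0 from A to B by the rule above. Only 3 could have gone from B to A and 6 from A to B. Of all such gene starts 19% and 3.63% did, so nothing is read from these counts. TamR was above all parental scores in 3 of the 11 and below them in 7, against 4 and 2 of the 8, and 30.2% and 45.9% of all gene starts. These counts use the scores, and on the percentile scale some genes are placed otherwise. SOX9 in TamR (38.2) was then within its parental range (33.0 to 39.0), as were SOX8 and SOX18 within theirs. SOX5 in TamR (4.0) was then above its parental range (0.514 to 1.53). The median TamR minus parental difference of the 8 was 0.38, that of the 11 was -1.53 and that of all gene starts was -0.45. The choice of SOX4 (difference 2.32) in part fixed the count above and the median of the 8. The sets also start unalike, with 7 of the 8 and 3 of the 11 in B in all 5 parental libraries. Nothing is read from this contrast.

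SOX3, a neural gene on chromosome X related to SOX2, had the lowest TamR minus parental difference of the 19 genes. It scored -1.33 in T0, -0.13 in T1, 0.77 in T4, 0.13 in T16, -0.16 in T24 and -7.39 in TamR, and 33 of 19670 gene starts had a lower TamR minus parental difference. SOX15, which is known from muscle and placenta, was in A throughout and had a TamR score of 6.80 against 11.42 to 13.57 in the parental libraries. SOX21 and SOX30 were less negative in TamR, at -2.05 against a parental mean of -4.33 and at -1.77 against -3.22.

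Compartments differed between relatives in SoxB1, SoxC, SoxD, SoxE and SoxF, while both SoxB2 genes, SOX14 and SOX21, were in B in all 6 libraries. In SoxB1, SOX1 was in A (parental mean 3.13), SOX2 in B and SOX3 near the border in the parental libraries and in B in TamR. In SoxC, SOX12 was in A in all 6 libraries (TamR 12.63), SOX4 near the border and SOX11 in B. In SoxD, SOX13 was in A in all 6 libraries (parental mean 9.91) and SOX5 in B in all 6, while SOX6 was in B in the parental libraries and in A in TamR. In SoxE, SOX8 (parental mean 16.39) and SOX10 were in A and SOX9 in B. In SoxF, SOX18 was in A (parental mean 16.68), SOX7 near the border and SOX17 in B.

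**Figure D4:**
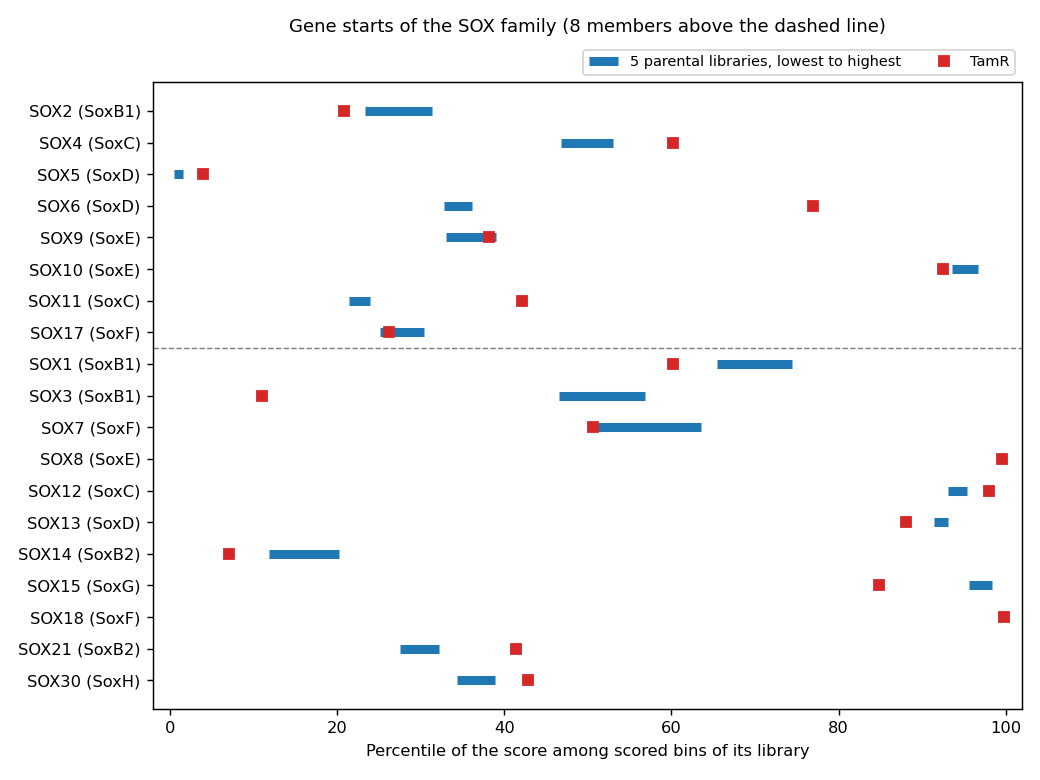
Percentile of the start-bin score among the scored bins of its library (horizontal axis) for 19 SOX genes, with the lowest to highest of the 5 parental libraries as bars and TamR as squares. SOX6 (parental 32.8 to 36.1, TamR 76.9) and SOX3 (parental 46.6 to 56.8, TamR 11.0) lie furthest from their bars, and the bars of SOX8 and SOX18 are hidden behind their squares.

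The score of a SOX start went with the base composition of its bin. Over the 19 start bins the correlation of GC content with the parental mean was 0.92, and with TamR 0.84. Over all 27898 scored bins the values were 0.73 and 0.72. These are descriptions, since the bins share the libraries. The SOX10 bin had 54.3% GC, and the other 7 had 38.1% (SOX5) to 45.6% (SOX9), against a median of 39.8% for scored bins. SOX6 (39.5%) and SOX4 (42.5%), which changed compartment, were within the range of the genes that stayed in B. The windows of SOX2, SOX4 and SOX9 held 4 protein-coding gene starts each, those of SOX5 and SOX17 held 8, that of SOX6 held 17 and that of SOX11 held 1.

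The gene starts with scores most like those of SOX4 over the 6 libraries, by Euclidean distance, were PCNP, SENP7 and TRMT10C on chromosome 3, which share 1 bin. This bin scored -0.88 in T0, -1.27 in T1, -1.28 in T4, -0.70 in T16, -1.71 in T24 and 1.67 in TamR, at a distance of 0.77. The median over 19666 gene starts was 15.67, and the choice of the nearest starts fixed that theirs was lower.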

How the data were processed

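TCC was performed on 6 T47D libraries, 1 per condition. The methods of the study name iterative bowtie2 alignment to hg19 and HiCLib binning at 100 Kb. Low-coverage bins were removed, the top interchromosomal counts truncated and the matrix corrected iteratively. Contacts within chromosomes were set to zero. The authors deposited the first eigenvector as a score per bin, and a 0 marks a bin without one. Whether T47D replicates were pooled is not stated in the sources used here.

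Gene positions came from GENCODE on GRCh37, and the chromosome lengths of that build equal the last bin ends in the files. The sign of a score was used as deposited, and bins without a score in any library were left out. The members and lists were chosen with earlier results of these data known. Named were the 8 genes, the other 11 SOX genes, their nearest neighbours, up to 5 genes in a switched run and the 3 starts most like SOX4. Some neighbours of SOX10, SOX17 and SOX6 by this rule are given as counts. Call rules were tested on simulated tracks. Python 3.11.15, numpy 2.4.6, pandas 2.3.3, scipy 1.17.1 and matplotlib 3.10.9 were used.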

Additional observations from a re-analysis of the deposited data

How the results depend on the processing

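No paired analysis was possible because no condition had more than 1 library. The files give no contact counts, so what depth limits is unknown. Values are given where a share left its Wilson interval, a count moved by over 1.5 times or a percentile difference (TamR minus parental mean at the start) moved by more than the SD of the 5 parental percentiles, which are conditions and not replicates. The Wilson interval counts adjacent bins as independent and serves here only as a yardstick. Leaving out each E2 time point, and windows of 5 or 20 bins, moved none of the values. The border at each library's median left 1 switched member in place of 2, since SOX4 no longer counted. The percentile difference of SOX6 was 41.8, and 55.4 as the mean over the gene body, 51.3 at the canonical start, 38.5 as the mean of 3 bins and 36.7 in bins of 500 Kb. That of SOX5 was 2.92, and 1.32, 0.434, 1.59 and 1.87 in the same order, and 2.47 against T0 alone. The mean of 3 bins gave 7.59 for SOX9 (from 2.83), -0.202 for SOX10 (from -3.16) and 16.8 for SOX11 (from 19.0). Bins of 500 Kb gave 5.28 for SOX9 and -0.318 for SOX10. T0 alone as the reference gave -10.6 for SOX2 (from -7.46), -1.17 for SOX10 and a reversed -0.839 for SOX9, and raised the share of A to B bins from 0 to 2.15%. After removal of weak bins (absolute score in the lowest 10% in any library), 0% of 148 bins had more than 1 compartment in the E2 course. Leaving out the window of SOX4 or SOX6, chosen after the data were seen, gave B to A shares of 13.3% and 11.5%. The cause of these changes was not tested, apart from those given by an alternative's construction.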
